A study of Mus musculus with 12 samples.

Results

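The genes described are the glutathione and antioxidant enzymes of the adult mouse seminal vesicle. A gene was included if the platform annotation gave its probe set a single symbol and that symbol named a glutathione S-transferase of the alpha, mu, omega, pi, theta, zeta or kappa class, a microsomal glutathione S-transferase, a glutathione peroxidase, a peroxiredoxin, a thioredoxin reductase, a superoxide dismutase, or was Hmox1, Nqo1, Gclc, Gclm, Gsr or Cat. This gave 45 genes of the 30062 named on the array, with 1 probe set each. They were 20 cytosolic or mitochondrial glutathione S-transferases, 3 microsomal transferases, 8 glutathione peroxidases, 3 peroxiredoxins, 3 thioredoxin reductases, 3 superoxide dismutases, Cat, Gclc, Gsr, Hmox1 and Nqo1. Another 5 probe sets carried such a symbol together with a different one and were left out. Gclm, Prdx1, Gsta1 and Gstp2 are among them and were not analysed here. The remaining one carried Prdx2 together with Junb, so Prdx2 is described from its other probe set only.

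Seminal vesicles were taken at week 10 from male C57BL/6 mice, and their RNA was hybridized to Affymetrix arrays, 3 in each of 4 groups. WT_vehicle and WT_DES were wild-type mice, and aERKO_vehicle and aERKO_DES were aERKO mice, which lack estrogen receptor alpha, the product of Esr1. The DES groups had received diethylstilbestrol (DES), a synthetic estrogen, in corn oil under the skin, 2 µg daily for each pup from day 1 to day 5, and the vehicle groups the same volume of corn oil. The design asks whether neonatal estrogen exposure leaves a lasting change in the adult gland and whether estrogen receptor alpha is needed for it. The labels do not say how the aERKO allele was made, nor whether separate animals gave the 3 samples in each group, so the p-values reflect sample-to-sample spread that may be technical.

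Glutathione is a small thiol that cells make in steps beginning with glutamate-cysteine ligase (catalytic subunit Gclc) and that glutathione reductase (Gsr) returns to its reduced form after use. Glutathione peroxidases spend it to reduce peroxides, and glutathione S-transferases join it to reactive lipids and foreign compounds. Superoxide dismutases convert superoxide to hydrogen peroxide, which catalase, glutathione peroxidases and peroxiredoxins then remove, with thioredoxin reductases recharging the peroxiredoxin system. Many of these genes are targets of the transcription factor NRF2 (Nfe2l2), which the adaptor KEAP1 marks for degradation until oxidants or electrophiles modify it, and which binds antioxidant response elements that the repressor BACH1 also occupies.

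All values are log2 expression as deposited, after RMA, a method that removes background, makes the distributions of the arrays alike and combines the probes of each set. A difference of 1 on this scale is 2-fold. The 12 array medians lay between 5.95 and 6.14. Within groups, pairs of arrays had correlations of 0.982 to 0.996 over genes, and WT_DES arrays correlated with arrays of the other groups at 0.867 to 0.919. Esr1 checked the genotype labels: its highest value in any aERKO array was 7.09, below the lowest WT value of 7.55. The difference, aERKO minus WT, was -0.76 with vehicle and -0.76 with DES. These values separate the labels and do not measure how much of the receptor was lost. Values of 23 background control probe sets averaged 4.87 in WT_DES, against 5.31 in WT_vehicle, 5.33 in aERKO_vehicle and 5.28 in aERKO_DES, and the mean of 4 hybridization controls was 0.36 lower in WT_DES than in WT_vehicle (difference -0.36).

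Of the 45 genes, 41 exceeded the array median on at least 3 of the 12 arrays and were tested, and each of the 41 would have passed without the WT_DES arrays. The other 4 exceeded it on at most 1 array. These were Gpx5, known as the epididymal glutathione peroxidase, at 5.15 to 5.89 over the 12 arrays, Gpx6 at 5.16 to 5.63, Gsta2 at 5.68 to 6.00 and Gstt4 at 5.38 to 6.04.

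In wild-type mice, neonatal DES was followed in the adult gland by higher RNA for 14 of these enzymes, led by Gsto1, Hmox1, Gpx3, Gsta4, Mgst1 and Gsr, and by lower RNA, as deposited, for 10 with smaller differences, the largest in Gstm2 and Gstz1. The decreases depended on how the arrays were scaled. Tested with limma across 20103 genes, 24 of the 41 genes differed between WT_DES and WT_vehicle at a Benjamini-Hochberg adjusted p below 0.05, 14 of them higher and 10 lower. Over all genes tested 43.9% were called, 20.6% higher and 23.3% lower, against 58.5%, 34.1% and 24.4% of these genes. All 6 differences of at least 2-fold were increases, in Gsto1, Hmox1, Gpx3, Gsta4, Mgst1 and Gsr. That is 14.6% of the genes, beside 4.58% of all genes at least 2-fold higher, while 0 of the 41 were at least 2-fold lower, beside 0.532% of all genes. The median difference was 0.04 over the 41 genes and -0.05 over all genes, and that of the 41 was -0.026 without WT_vehicle 1 and -0.012 without WT_DES 2. For 28 of the 41 genes (68.3%) no WT_DES array fell within the WT_vehicle range, nor the reverse, beside 60.9% of all genes. In bulk tissue RNA, fewer cells of a type and less RNA per cell cannot be told apart.

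**Figure D1:**
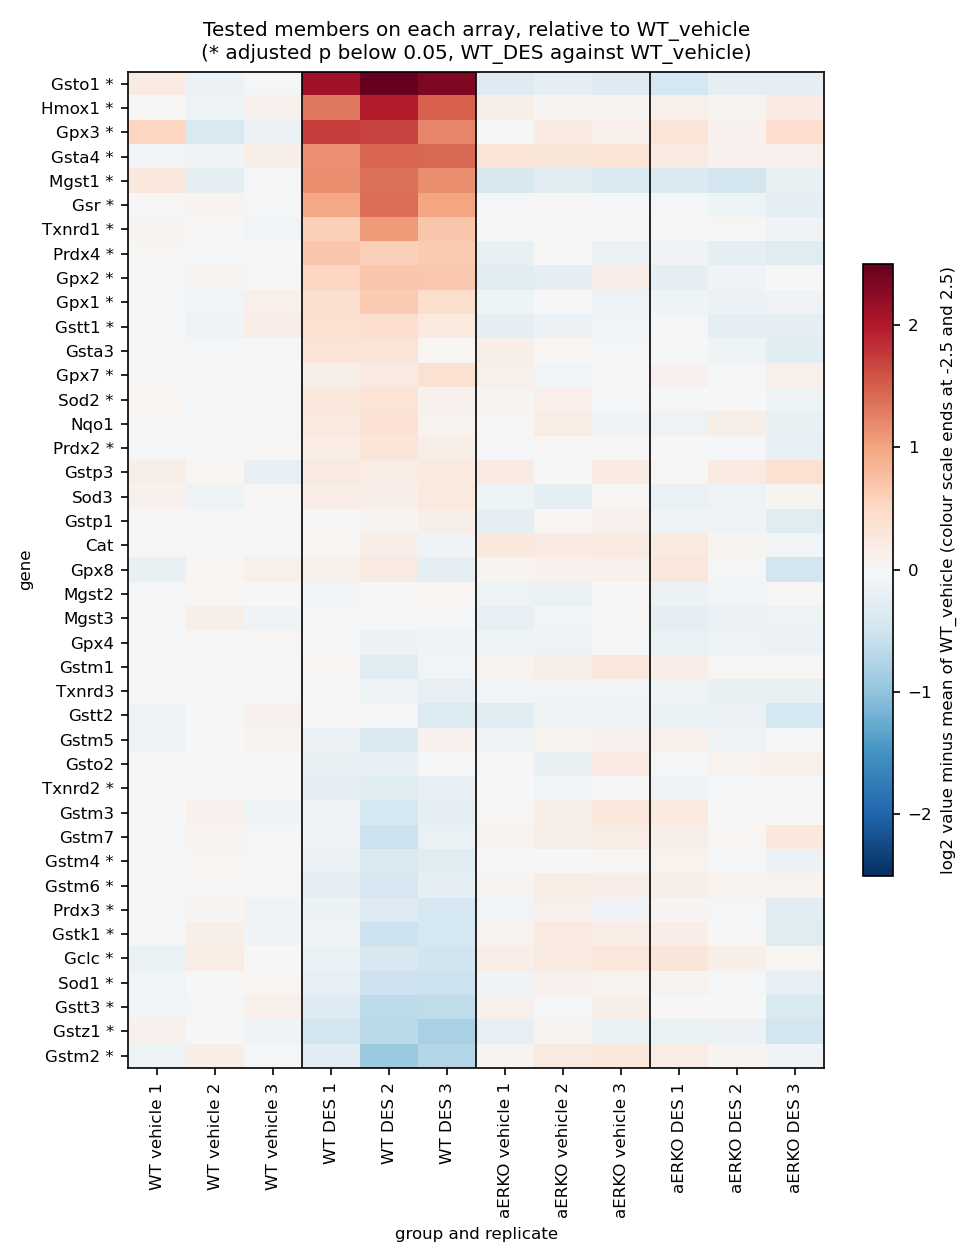
Each row is 1 of the 41 tested genes and each column 1 array. Colour gives the log2 value minus the mean of the 3 WT_vehicle arrays, and a star marks an adjusted p below 0.05 for WT_DES against WT_vehicle. The strong colour lies in the WT_DES columns, led by Gsto1, while the 6 aERKO columns stay close to WT_vehicle.

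The largest difference was in Gsto1, an omega-class transferase that reduces dehydroascorbate and removes glutathione from protein thiols. Its values were 7.78, 7.44 and 7.54 (WT_vehicle), 9.69, 10.58 and 9.92 (WT_DES), 7.27, 7.35 and 7.26 (aERKO_vehicle) and 7.14, 7.35 and 7.34 (aERKO_DES). The 3 WT_DES arrays all lay above the other 9. The difference in wild type was 2.48 ± 0.18 (SE), or 5.57-fold (adjusted p = 2.91e-07). Gsto2, which lies next to Gsto1 on chromosome 19 in the mouse gene table, was at 6.14 ± 0.03 (SD, n = 3) in WT_vehicle and 6.00 ± 0.10 in WT_DES and did not pass the test (adjusted p = 0.249).

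Hmox1, heme oxygenase 1, breaks heme down to biliverdin, carbon monoxide and iron. Its values were 7.25, 7.11 and 7.33 (WT_vehicle), 8.55, 9.19 and 8.73 (WT_DES), 7.38, 7.29 and 7.30 (aERKO_vehicle) and 7.35, 7.31 and 7.43 (aERKO_DES). WT_DES stood apart from the other 3 groups, which overlapped one another. The wild-type difference was 1.59 ± 0.13, 3.02-fold (adjusted p = 8.97e-07). Nqo1, a quinone reductase and like Hmox1 a common readout of NRF2, had values of 6.15, 6.07 and 6.15 (WT_vehicle), 6.38, 6.48 and 6.22 (WT_DES), 6.15, 6.32 and 6.03 (aERKO_vehicle) and 6.00, 6.26 and 5.94 (aERKO_DES). The WT_DES arrays were above the WT_vehicle arrays but the difference of 0.23 ± 0.10 did not pass the test as deposited (adjusted p = 0.0743). Nqo1 was called higher with the arrays scaled to the hybridization controls (0.59).

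**Figure D2:**
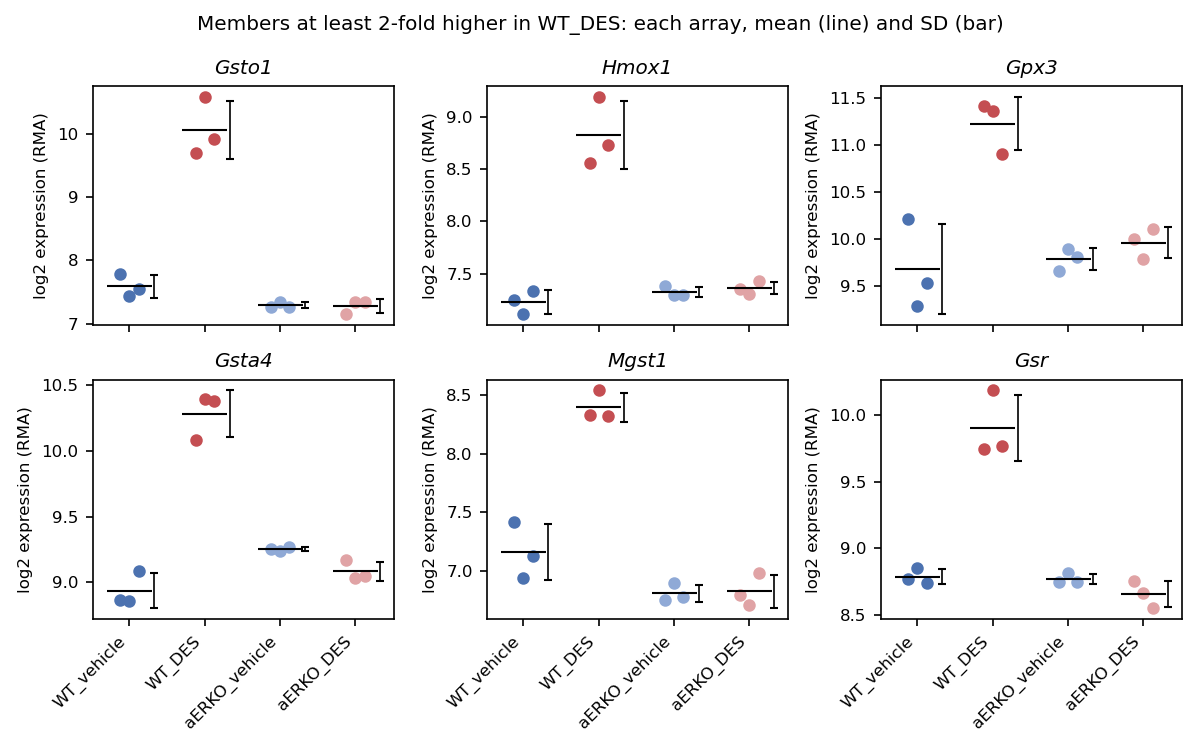
Log2 expression (RMA) on each of the 12 arrays for the 6 genes at least 2-fold higher in WT_DES, with the group mean as a line and the SD as a bar beside it. In every panel the 3 WT_DES points lie above the other 9, and the vertical axis differs between panels and does not start at 0.

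For 39 of the 45 genes the RefSeq promoter table (mouse build GRCm38.p6) held at least 1 transcript start. The 250 bases before each start were searched on both strands for the core of the antioxidant response element, TGACNNNGC, and for the AP-1 site, TGANTCA; the 2 patterns can overlap at their TGA. The element core was present for 6 of the 39 genes (15.4%; Gsta3, Gstm5, Gstm7, Mgst1, Sod1 and Txnrd1) and for 3112 of all 27025 genes in the table (11.5%). It was present for 2 of 11 genes called higher in WT_DES and 1 of 9 called lower. Hmox1, Gsr and Gsta4, also called higher, and Gclc, called lower, had no start in the table and were not searched. The AP-1 site was present for 3 of the 39 genes (7.69%) and 7.82% of all genes. A match is a description of letters and not a binding site. A gene was counted if any of its listed starts had a match. The sequences below are the 250 bases before a start, on the plus strand of the named chromosome, for the 2 genes called higher that hold the core and for Gsto1 and Gpx3, large increases whose windows hold none. Capitals mark the core, which is on the minus strand in both genes and begins 56 bases before the start in Mgst1 (chr6:138140277-138140526) and 92 bases before it in Txnrd1 (chr10:82858956-82859205). The windows of Gsto1 (chr19:47854723-47854972) and Gpx3 (chr11:54902604-54902853) are the only ones listed for these genes. Mgst1 and Txnrd1 have other listed starts, whose windows hold no core.
Mgst1: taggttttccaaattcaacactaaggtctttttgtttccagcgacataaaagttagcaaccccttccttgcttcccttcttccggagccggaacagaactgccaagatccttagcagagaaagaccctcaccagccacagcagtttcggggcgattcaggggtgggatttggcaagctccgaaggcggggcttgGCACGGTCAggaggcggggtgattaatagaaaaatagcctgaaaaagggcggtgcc
Txnrd1: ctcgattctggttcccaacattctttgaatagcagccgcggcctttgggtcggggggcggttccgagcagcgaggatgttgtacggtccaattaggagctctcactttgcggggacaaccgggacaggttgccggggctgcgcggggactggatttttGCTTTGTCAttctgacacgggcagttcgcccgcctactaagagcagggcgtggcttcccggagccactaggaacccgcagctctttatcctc
Gsto1: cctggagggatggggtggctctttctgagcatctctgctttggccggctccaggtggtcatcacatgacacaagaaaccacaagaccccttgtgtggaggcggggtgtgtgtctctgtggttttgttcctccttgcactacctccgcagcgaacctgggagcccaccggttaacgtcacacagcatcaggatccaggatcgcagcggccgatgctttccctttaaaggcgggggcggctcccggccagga
Gpx3: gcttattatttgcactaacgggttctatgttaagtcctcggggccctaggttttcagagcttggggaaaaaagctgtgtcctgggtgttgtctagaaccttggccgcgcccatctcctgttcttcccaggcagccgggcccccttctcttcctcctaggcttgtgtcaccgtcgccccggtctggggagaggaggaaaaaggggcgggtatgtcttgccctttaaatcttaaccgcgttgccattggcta

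Of the genes for glutathione supply and recycling, Gsr rose in wild type, and Gclc was called lower as deposited but not with the arrays scaled to the hybridization controls. Gsr, which regenerates reduced glutathione with NADPH, had values of 8.77, 8.85 and 8.74 (WT_vehicle), 9.75, 10.19 and 9.77 (WT_DES), 8.75, 8.81 and 8.75 (aERKO_vehicle) and 8.75, 8.66 and 8.55 (aERKO_DES). No WT_DES array overlapped any other, and the wild-type difference was 1.11 ± 0.10, 2.16-fold (adjusted p = 3.73e-06). Gclc, the catalytic subunit for the first step of glutathione synthesis, had values of 10.06, 10.41 and 10.23 (WT_vehicle), 10.06, 9.83 and 9.74 (WT_DES), 10.39, 10.46 and 10.52 (aERKO_vehicle) and 10.54, 10.37 and 10.28 (aERKO_DES). WT_DES 1 equalled WT_vehicle 1 to 2 decimals, so the groups met. The difference as deposited was -0.36 ± 0.10 (adjusted p = 0.0166), and with the arrays scaled to the hybridization controls it became 0.0012 with no call.

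The glutathione S-transferases held increases of at least 2-fold in Gsto1, Gsta4 and Mgst1 and smaller decreases, which lost their calls after scaling to the hybridization controls. Over the cytosolic, mitochondrial and microsomal transferases together, 4 of 21 tested were higher in WT_DES, 6 lower and 11 not called, where 20.6% of all genes were higher and 23.3% lower. Besides Gsto1, the higher genes were Gsta4, Mgst1 and Gstt1. Gsta4, an alpha-class enzyme that conjugates hydroxynonenal, a product of lipid peroxidation, had values of 8.87, 8.86 and 9.09 (WT_vehicle), 10.08, 10.39 and 10.38 (WT_DES), 9.25, 9.24 and 9.27 (aERKO_vehicle) and 9.17, 9.04 and 9.05 (aERKO_DES). Its WT_DES arrays were the highest 3 of the 12, and its difference of 1.35 ± 0.09 (2.54-fold) had the smallest adjusted p of the 41 genes (2.05e-07). Gsta3, of the same class, had values of 7.36, 7.31 and 7.32 (WT_vehicle), 7.67, 7.66 and 7.38 (WT_DES), 7.47, 7.38 and 7.28 (aERKO_vehicle) and 7.35, 7.22 and 7.06 (aERKO_DES). All WT_DES values of Gsta3 were above those of WT_vehicle, but aERKO_vehicle 1 reached into their range. The difference of 0.24 ± 0.09 missed the threshold as deposited (adjusted p = 0.0528) and was called higher with the hybridization controls (0.60).

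Mgst1 is a membrane-bound transferase that also reduces lipid hydroperoxides. Its values were 7.42, 6.94 and 7.12 (WT_vehicle), 8.33, 8.54 and 8.32 (WT_DES), 6.75, 6.89 and 6.78 (aERKO_vehicle) and 6.79, 6.71 and 6.98 (aERKO_DES). WT_DES was the highest group on every array, and WT_vehicle was above aERKO_vehicle. The wild-type difference was 1.23 ± 0.11, 2.35-fold (adjusted p = 3.75e-06). Mgst2 (-0.00) and Mgst3 (-0.04), the other microsomal transferases, did not pass the test. Gstt1, a theta-class transferase, had values of 7.77, 7.70 and 7.99 (WT_vehicle), 8.21, 8.24 and 8.06 (WT_DES), 7.57, 7.67 and 7.75 (aERKO_vehicle) and 7.78, 7.57 and 7.59 (aERKO_DES). Its WT_DES arrays were above the other 9, by a smaller margin, with a difference of 0.35 ± 0.09 (adjusted p = 0.00821).

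Gstt3, which lies next to Gstt1 on chromosome 10 with no protein-coding gene between, was called in the other direction. Its values were 8.53, 8.53 and 8.70 (WT_vehicle), 8.26, 7.94 and 7.95 (WT_DES), 8.70, 8.55 and 8.74 (aERKO_vehicle) and 8.59, 8.57 and 8.21 (aERKO_DES). The WT_DES arrays were below WT_vehicle, though aERKO_DES 3 fell within the WT_DES range. The difference was -0.53 ± 0.12 (adjusted p = 0.00275). Gstt2, the third tested gene of this cluster, had a difference of -0.12 and was not called.

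As deposited or with the hybridization controls, 0 of the 7 mu-class transferases, detoxifying enzymes encoded side by side on chromosome 3, were called higher. As deposited, 20.6% of all genes were called higher and 23.3% lower. Gstm2, Gstm4 and Gstm6 were called lower as deposited, but Gstm4 (0.09) and Gstm6 (0.05) changed sign and all 3 lost their calls after scaling to the hybridization controls. Gstm2 had values of 11.57, 11.85 and 11.67 (WT_vehicle), 11.42, 10.77 and 10.96 (WT_DES), 11.77, 11.93 and 11.96 (aERKO_vehicle) and 11.88, 11.78 and 11.61 (aERKO_DES). WT_DES was the lowest group on every array, WT_DES 2 lowest of all, and the difference was -0.65 ± 0.14 (adjusted p = 0.00291). Gstm6 had values of 6.17, 6.19 and 6.09 (WT_vehicle), 5.90, 5.72 and 5.91 (WT_DES), 6.21, 6.33 and 6.31 (aERKO_vehicle) and 6.30, 6.24 and 6.24 (aERKO_DES). Its 3 WT_DES arrays were also the lowest 3 of the 12, with a difference of -0.30 ± 0.07 (adjusted p = 0.0036). Gstm4 had values of 8.24, 8.31 and 8.22 (WT_vehicle), 8.11, 7.89 and 7.96 (WT_DES), 8.25, 8.27 and 8.30 (aERKO_vehicle) and 8.35, 8.22 and 8.11 (aERKO_DES). WT_DES was lowest, with aERKO_DES 3 equal to WT_DES 1 to 2 decimals, and the difference was -0.27 ± 0.08 (adjusted p = 0.0128). Mu-class genes are close paralogs, so a probe set of one may take signal from another and each gene's value is uncertain.

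The remaining mu-class genes did not pass the test in wild type. Gstm3 had values of 7.95, 8.06 and 7.84 (WT_vehicle), 7.86, 7.50 and 7.72 (WT_DES), 7.98, 8.09 and 8.22 (aERKO_vehicle) and 8.19, 7.96 and 7.94 (aERKO_DES), with a difference of -0.26 ± 0.11 (adjusted p = 0.0679). Gstm7 had values of 8.01, 8.12 and 8.02 (WT_vehicle), 7.95, 7.52 and 7.88 (WT_DES), 8.13, 8.20 and 8.24 (aERKO_vehicle) and 8.19, 8.09 and 8.31 (aERKO_DES), with a difference of -0.26 ± 0.10 (adjusted p = 0.0542). In both, WT_DES 2 was the lowest array of the 12. Gstm1 (-0.10) and Gstm5 (-0.13) had smaller differences, and with quantile normalization Gstm1, Gstm3 and Gstm7 were called lower as well.

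Gstz1, the zeta-class transferase that acts as an isomerase in tyrosine breakdown, had values of 9.43, 9.32 and 9.21 (WT_vehicle), 8.86, 8.65 and 8.50 (WT_DES), 9.12, 9.39 and 9.15 (aERKO_vehicle) and 9.16, 9.17 and 8.87 (aERKO_DES). Its WT_DES arrays were below all others, with aERKO_DES 3 just above WT_DES 1. The difference was -0.65 ± 0.11, 1.57-fold lower (adjusted p = 6.91e-04). Gstk1, the kappa-class transferase of mitochondria and peroxisomes, was at 8.96 ± 0.13 (SD, n = 3) in WT_vehicle and 8.60 ± 0.24 in WT_DES, and the 2 groups overlapped. Its difference of -0.36 ± 0.13 had an adjusted p of 0.0451 and became 0.0014 after scaling to the hybridization controls. Pi-class transferases did not pass the test in wild type as deposited. The difference was 0.08 in Gstp1, which has a near-identical copy, and 0.22 in Gstp3. With the hybridization controls both were called higher (0.44 and 0.57), and Gstp3 also with quantile normalization (0.29).

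Of the 6 glutathione peroxidases tested, 4 were higher in WT_DES and 0 lower as deposited, beside 20.6% and 23.3% of all genes. Gpx4 was called lower with quantile normalization or the same median. Gpx3, a secreted enzyme best known from plasma, had values of 10.22, 9.29 and 9.54 (WT_vehicle), 11.42, 11.37 and 10.90 (WT_DES), 9.66, 9.89 and 9.81 (aERKO_vehicle) and 10.00, 9.79 and 10.11 (aERKO_DES). The WT_DES arrays were the highest 3, and WT_vehicle had the widest spread of any gene and group here (SD 0.48), with WT_vehicle 1 above the other 2. The difference was 1.54 ± 0.20, 2.92-fold (adjusted p = 7.11e-05). Gpx2, an epithelial enzyme best known from the gut, had values of 6.55, 6.63 and 6.52 (WT_vehicle), 7.10, 7.27 and 7.25 (WT_DES), 6.28, 6.34 and 6.73 (aERKO_vehicle) and 6.31, 6.47 and 6.55 (aERKO_DES). WT_DES was again above the other 9 arrays, with a difference of 0.64 ± 0.11 (adjusted p = 5.28e-04). Gpx1, the ubiquitous cytosolic enzyme, had values of 10.92, 10.90 and 11.10 (WT_vehicle), 11.37, 11.63 and 11.40 (WT_DES), 10.87, 10.97 and 10.84 (aERKO_vehicle) and 10.86, 10.83 and 10.87 (aERKO_DES). It showed the same separation, with a difference of 0.50 ± 0.08 (adjusted p = 4.27e-04).

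Gpx7, which acts in the endoplasmic reticulum, was at 6.90 ± 0.03 (SD, n = 3) in WT_vehicle and 7.14 ± 0.13 in WT_DES, a called difference of 0.24 ± 0.08 (adjusted p = 0.025). Gpx4, which reduces lipid peroxides within membranes, was not called at -0.09 as deposited (95% interval -0.22 to 0.03). Gpx8, a membrane enzyme of the endoplasmic reticulum, was not called either, at 0.04 (-0.32 to 0.39). With the hybridization controls Gpx8 was called higher (0.40).

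Peroxiredoxins and thioredoxin reductases were called in both directions as deposited, the mitochondrial forms Prdx3 and Txnrd2 being the lower ones. Prdx4, the peroxiredoxin of the endoplasmic reticulum, had values of 7.07, 6.98 and 7.04 (WT_vehicle), 7.72, 7.63 and 7.68 (WT_DES), 6.86, 7.05 and 6.88 (aERKO_vehicle) and 6.95, 6.82 and 6.74 (aERKO_DES). Its WT_DES arrays were close together and above all others, with a difference of 0.64 ± 0.07 (adjusted p = 2.43e-05). Prdx2, a cytosolic peroxiredoxin, had values of 7.85, 7.88 and 7.92 (WT_vehicle), 8.08, 8.19 and 8.05 (WT_DES), 7.84, 7.92 and 7.90 (aERKO_vehicle) and 7.87, 7.85 and 7.67 (aERKO_DES). WT_DES was highest here too, with a difference of 0.22 ± 0.07 (adjusted p = 0.0226). Prdx3, the mitochondrial peroxiredoxin, was at 9.94 ± 0.08 (SD, n = 3) in WT_vehicle and 9.63 ± 0.15 in WT_DES. Its difference was -0.31 ± 0.10 (adjusted p = 0.0282) as deposited and 0.05 after scaling to the hybridization controls.

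Txnrd1, the cytosolic thioredoxin reductase, had values of 8.71, 8.65 and 8.58 (WT_vehicle), 9.25, 9.72 and 9.34 (WT_DES), 8.65, 8.69 and 8.64 (aERKO_vehicle) and 8.66, 8.69 and 8.57 (aERKO_DES). WT_DES was above the other 9 arrays and the difference was 0.79 ± 0.10, 1.73-fold (adjusted p = 6.19e-05). Txnrd2, the mitochondrial form, had values of 7.53, 7.53 and 7.53 (WT_vehicle), 7.29, 7.22 and 7.33 (WT_DES), 7.52, 7.46 and 7.51 (aERKO_vehicle) and 7.44, 7.50 and 7.50 (aERKO_DES). WT_vehicle arrays were nearly equal and WT_DES lay below all others, with a difference of -0.25 ± 0.06 (adjusted p = 0.00358) that changed sign to 0.11 after scaling to the hybridization controls. Txnrd3 was not called at -0.12 as deposited, was called lower with the same median (-0.19) and had a difference of 0.24 with the hybridization controls. Gpx1 to Gpx4 and the 3 thioredoxin reductases carry selenocysteine. Of these 7, a grouping made after the values were seen, 4 were higher in WT_DES, 1 lower and 2 not called. Over all genes 20.6% were higher and 23.3% lower.

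Among the superoxide dismutases and catalase, Sod2 was called higher and Sod1 lower as deposited. Sod1, the cytosolic copper-zinc dismutase, had values of 10.71, 10.78 and 10.83 (WT_vehicle), 10.57, 10.25 and 10.24 (WT_DES), 10.68, 10.89 and 10.87 (aERKO_vehicle) and 10.86, 10.73 and 10.57 (aERKO_DES). WT_DES was lowest, reached only by aERKO_DES 3, and the difference was -0.42 ± 0.10 (adjusted p = 0.00622). Sod2, the mitochondrial manganese dismutase, had values of 8.02, 7.94 and 7.93 (WT_vehicle), 8.22, 8.30 and 8.07 (WT_DES), 8.03, 8.08 and 7.93 (aERKO_vehicle) and 7.97, 7.97 and 7.86 (aERKO_DES). WT_DES was above WT_vehicle but WT_DES 3 fell among the aERKO arrays, and the difference was 0.23 ± 0.07 (adjusted p = 0.0225). Sod3, the extracellular dismutase, had values of 7.01, 6.77 and 6.94 (WT_vehicle), 7.10, 7.05 and 7.16 (WT_DES), 6.80, 6.68 and 6.95 (aERKO_vehicle) and 6.74, 6.78 and 6.98 (aERKO_DES), with a difference of 0.19 ± 0.09 (adjusted p = 0.0971). Cat, catalase of the peroxisome, was at 9.98 ± 0.02 (SD, n = 3) in WT_vehicle and 10.02 ± 0.11 in WT_DES and was not called as deposited. The 95% interval of its difference was -0.14 to 0.22. With the hybridization controls Sod3 (0.55) and Cat (0.40) were called higher, and Sod3 also with quantile normalization (0.22).

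The split of calls depended on scaling. Scaling each array to the 4 hybridization controls added the same amount to the wild-type difference of every gene, so by construction it made increases larger and decreases smaller. It raised the median difference of all genes from -0.05 to 0.31 and turned the split of all called genes from 4151 higher and 4677 lower to 8347 and 350. For the 41 genes it gave 21 higher and 0 lower. The genes it added to the higher ones were Cat (0.40), Gpx8 (0.40), Gsta3 (0.60), Gstp1 (0.44), Gstp3 (0.57), Nqo1 (0.59) and Sod3 (0.55). Scaling to the same median over tested genes gave 3409 higher and 7110 lower among all genes, and 11 and 14 among the 41. Quantile normalization gave 3706 and 5653 among all genes, and 16 and 14 among the 41. It added Gstp3 (0.29) and Sod3 (0.22) to the higher ones. Relative to the median of all genes, which a shift of whole arrays does not change, the 10 genes called lower lay between -0.60 and -0.20 and the 14 called higher between 0.27 and 2.53. Of the 14 increases, 11 were called under all 21 alternatives tried (Gsto1, Hmox1, Gpx3, Gsta4, Mgst1, Gsr, Txnrd1, Prdx4, Gpx2, Gpx1 and Gstt1). Of the 10 decreases 0 were, since all 10 lost their calls when the hybridization controls were used. The shift differed from array to array, so this scaling also altered the spread within groups, and size alone did not decide the calls. Gstm2 and Gstz1 were still at -0.29 there. The interactions of Prdx2 and Sod2 both rose from 0.31 to 0.54 under it and lost their calls.

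**Figure D3:**
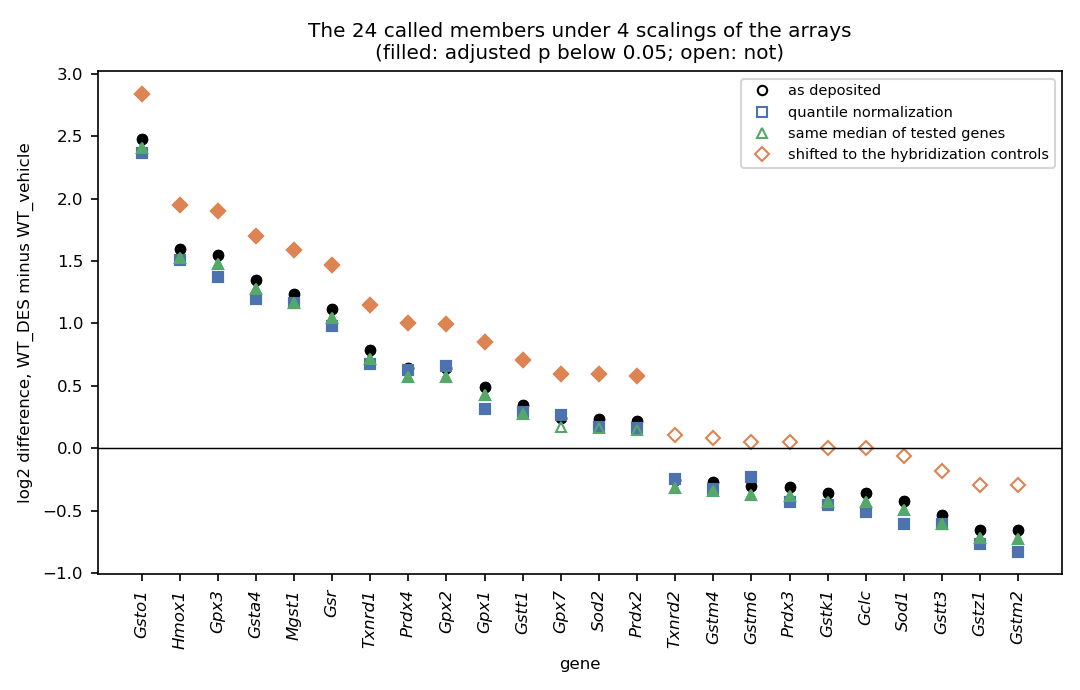
Log2 difference, WT_DES minus WT_vehicle, of the 24 called genes with the arrays as deposited and under 3 other scalings, with filled symbols for an adjusted p below 0.05 and open symbols otherwise. The 11 largest increases stay filled under all 4 scalings; the 10 decreases all turn open with the hybridization controls, where 6 of them (Gclc, Gstk1, Gstm4, Gstm6, Prdx3 and Txnrd2) cross the zero line, being the decreases smaller than the amount this scaling adds to every gene.

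Some calls in wild type ended when 1 array was left out. The count of genes called higher ranged from 12 to 15 when each array was left out in turn, and the count called lower from 6 to 12, with 6 without WT_vehicle 2 or without WT_DES 2 and 12 without WT_DES 1. Gpx7 lost its call without WT_vehicle 1, WT_vehicle 3 or WT_DES 3 (difference 0.17 to 0.23). Prdx2 lost it without WT_vehicle 1, WT_vehicle 2 or WT_DES 2 (0.18 to 0.22), and Sod2 without WT_vehicle 2, WT_vehicle 3, WT_DES 1 or WT_DES 2 (0.18 to 0.22). Gclc lost it without WT_vehicle 2, WT_DES 2 or WT_DES 3 (-0.33 to -0.27) and Gstm4 without WT_vehicle 2 or WT_DES 2 (-0.24 to -0.22). Prdx3 lost it without WT_vehicle 1, WT_vehicle 2, WT_DES 2 or WT_DES 3 (-0.30 to -0.24). Gstk1, at the edge of the threshold, lost it in 9 of the 12 cases, all but those without WT_DES 1, aERKO_DES 1 or aERKO_DES 3 (-0.41 to -0.26). These cases include aERKO arrays, which enter the fit but not the wild-type difference. WT_DES 2 was the highest of the 3 WT_DES arrays in 11 of the 14 genes called higher and the lowest in 6 of the 10 called lower.

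In aERKO mice the same exposure left no difference that passed the test. With limma 0 of the 41 genes were called between aERKO_DES and aERKO_vehicle, and 0 of all 20103 genes (0%). At an unadjusted p below 0.05, 0 of the 41 genes and 1.31% of all genes passed. Differences ran from -0.21 to 0.18, and the widest 95% intervals reached -0.52 (Gpx8) and 0.61 (Gpx3). For the 6 genes with the largest increases in wild type, the aERKO differences lay between -0.17 (Gsta4) and 0.18 (Gpx3). For 2 of the 41 genes (4.88%) the aERKO_DES and aERKO_vehicle ranges were apart, beside 6.11% of all genes.

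**Figure D4:**
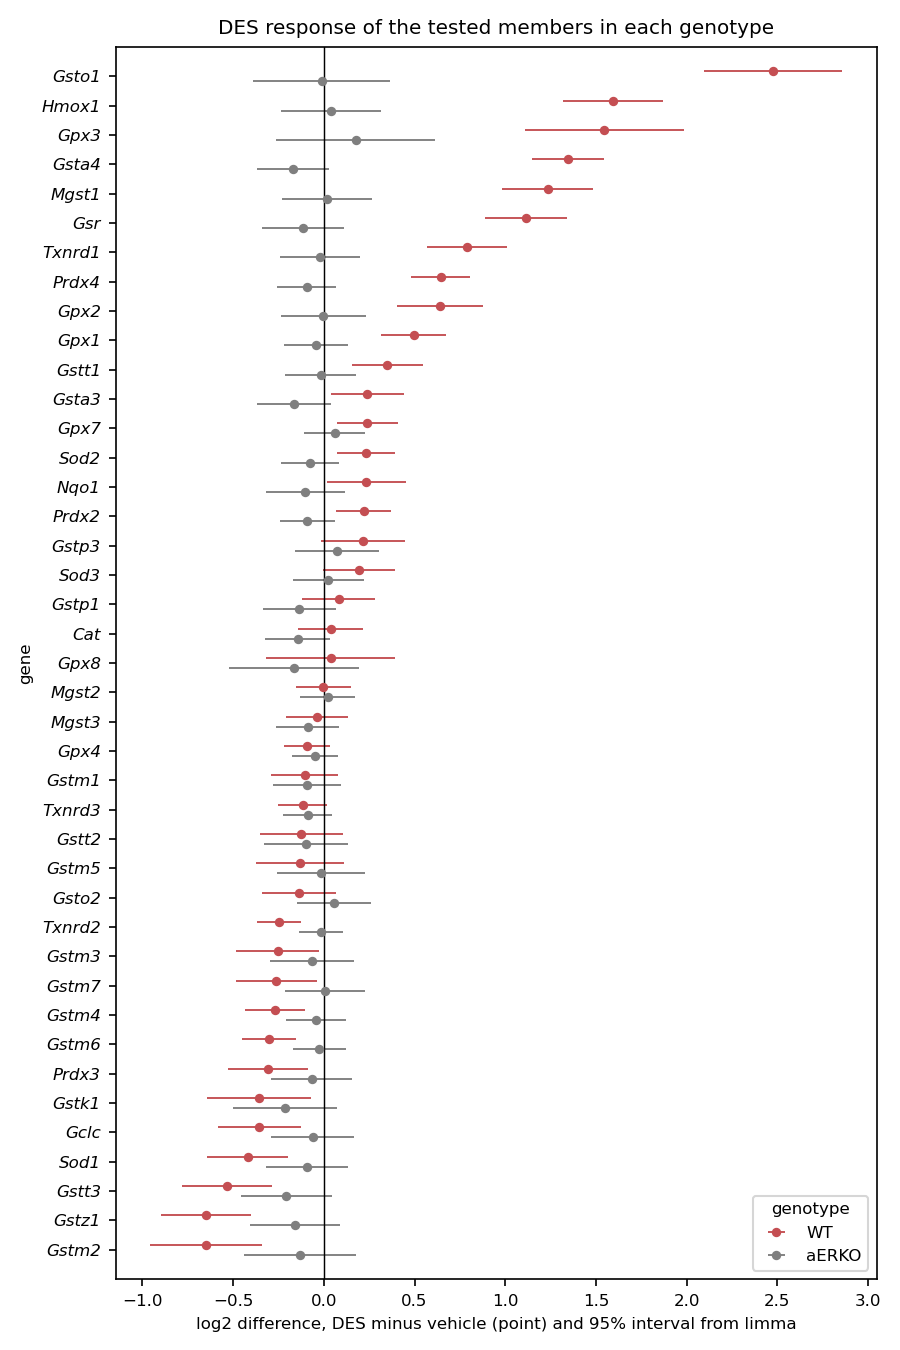
Log2 difference, DES minus vehicle, of the 41 tested genes in wild type and in aERKO, with 95% intervals from limma (3 arrays per group). The aERKO points lie between -0.21 and 0.18 for all genes, whereas the wild-type points run from -0.65 for Gstm2 to 2.48 for Gsto1.

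The difference between the 2 responses was tested as an interaction. It was called for 15 of the 41 genes (36.6%), 13 with a response higher in wild type and 2 lower, where 23.3% of all genes were called, 14.1% higher and 9.16% lower. It was 2.49 ± 0.25 (SE) for Gsto1 (adjusted p = 1.57e-05), 1.56 ± 0.18 for Hmox1 (adjusted p = 5.52e-05) and 1.51 ± 0.13 for Gsta4 (adjusted p = 4.04e-06). For Gpx3 it was 1.37 ± 0.29 (adjusted p = 0.00469), for Gsr 1.23 ± 0.15 (adjusted p = 7.11e-05) and for Mgst1 1.22 ± 0.16 (adjusted p = 1.81e-04). The other calls with a higher response were Txnrd1 (0.81), Prdx4 (0.74), Gpx2 (0.64), Gpx1 (0.54), Gsta3 (0.40), Sod2 (0.31) and Prdx2 (0.31). The lower ones were Gstz1 (-0.49, adjusted p = 0.0446) and Txnrd2 (-0.23, adjusted p = 0.0496), and both lost their calls with the hybridization controls.

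Of the 13 higher interaction calls, 9 were made under all 20 alternatives that could be fitted. Gpx1 lost its call only under quantile normalization. Gsta3, Sod2 and Prdx2 were called in 8, 6 and 8 of the 20. Left-out arrays that ended the Gsta3 call were each WT_vehicle array, WT_DES 1 and 2, aERKO_vehicle 1 and 2, and aERKO_DES 2 and 3 (0.33 to 0.42). The Prdx2 call ended without any 1 WT_vehicle array, WT_DES 2, aERKO_vehicle 2 or 3, or aERKO_DES 2 or 3 (0.25 to 0.34). The Sod2 call ended in 10 of the 12 cases, all but those without WT_DES 3 or aERKO_vehicle 3 (0.26 to 0.34). For Gstz1 it ended without any 1 WT_vehicle array, WT_DES 2 or 3, aERKO_vehicle 1 or 3, or aERKO_DES 1 or 2 (-0.55 to -0.41). For Txnrd2 it ended in 11 cases, all but that without WT_DES 3 (-0.26 to -0.20).

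Without DES the genotypes did not differ in any of these genes at the threshold. With limma 0 of 41 were called between aERKO_vehicle and WT_vehicle, beside 0.0249% of all genes, and 3 of 41 (7.32%) passed an unadjusted p below 0.05, beside 4.3% of all genes. These were Gsta4 (aERKO_vehicle minus WT_vehicle 0.32 ± 0.09), Mgst1 (-0.35 ± 0.11) and Cat, whose values were 10.01, 9.97 and 9.97 (WT_vehicle), 10.04, 10.12 and 9.90 (WT_DES), 10.24, 10.19 and 10.20 (aERKO_vehicle) and 10.23, 10.05 and 9.91 (aERKO_DES) (0.23 ± 0.08). Their adjusted p-values were 0.738, 0.886 and 0.921. The 41 differences lay between -0.35 and 0.32.

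After DES the genotypes differed in 27 of the 41 genes, 17 lower and 10 higher in aERKO_DES than in WT_DES. Over all genes 52.1% were called, 24.6% lower and 27.5% higher. This comparison shares its WT_DES arrays with the wild-type comparison, so the values are given side by side and are not a second line of evidence. The 6 genes at least 2-fold lower in aERKO_DES (4.82% of all genes) were Gsto1 (-2.79 ± 0.18, SE), Mgst1 (-1.57 ± 0.11), Hmox1 (-1.46 ± 0.13), Gpx3 (-1.26 ± 0.20), Gsr (-1.25 ± 0.10) and Gsta4 (-1.20 ± 0.09). Prdx4 (-0.84), Txnrd1 (-0.80), Gpx2 (-0.76), Gpx1 (-0.61), Gstt1 (-0.52), Gsta3 (-0.36), Prdx2 (-0.31), Nqo1 (-0.29), Sod3 (-0.27), Sod2 (-0.26) and Gstp1 (-0.25) were lower by less. Gstp1 had values of 9.99, 9.98 and 9.99 (WT_vehicle), 9.99, 10.06 and 10.14 (WT_DES), 9.73, 10.03 and 10.09 (aERKO_vehicle) and 9.87, 9.90 and 9.67 (aERKO_DES); its WT_DES arrays were above its aERKO_DES arrays. Gstp3, the other pi-class gene tested, was not called (-0.01).

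The 10 genes higher in aERKO_DES than in WT_DES included 5 of the 7 mu-class transferases, as deposited, where 27.5% of all genes were higher. They were Gstm2 (0.71 ± 0.14), Gstm6 (0.42), Gstm7 (0.41), Gstm3 (0.34) and Gstm4 (0.24), with Gclc (0.52), Gstt3 (0.41), Gstz1 (0.39), Sod1 (0.36) and Txnrd2 (0.20). With the hybridization controls only Gstm2 kept its call, 1 of 10, and Txnrd2 changed sign (-0.02). Leaving out WT_DES 2 ended the calls of Gstm3, Gstm4 and Gstt3 (0.26 or less for the first, 0.18 to 0.19 for Gstm4, 0.35 for Gstt3), and leaving out aERKO_DES 1 ended those of Gstm3 and Gstm4. Gstz1 lost its call without aERKO_DES 2 (0.34). Among the genes lower in aERKO_DES, Nqo1 lost its call without WT_DES 1, WT_DES 2, aERKO_DES 1 or aERKO_DES 3 (-0.28 to -0.23), and Sod3 without WT_DES 1, WT_DES 3, aERKO_DES 1 or aERKO_DES 2 (-0.27 to -0.22). Gstp1 lost it without any 1 WT_vehicle array, WT_DES 2, WT_DES 3 or aERKO_DES 3 (-0.25 to -0.18).

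Genes that make, transport and use glutathione and thioredoxin were followed in a list of 30, of which 27 were tested. In WT_DES 8 were higher and 9 lower than in WT_vehicle (43.9% of all genes called), with a median of -0.05. The largest called differences were in Anpep, an aminopeptidase that acts on products of extracellular glutathione breakdown (2.52 ± 0.13, SE), and Slc7a11, the cystine importer that feeds glutathione synthesis (1.55 ± 0.14). Slc7a11 exceeded the array median on the 3 WT_DES arrays and on 0 of the other 9, so it entered the test only through the group in which it was high. Abcc1, an exporter of glutathione conjugates, was higher (0.84 ± 0.09), as was Txnip, which binds and inhibits thioredoxin (0.61 ± 0.12). Chac1, which degrades glutathione inside the cell, was lower (-0.87 ± 0.18), as was Abcc2, another conjugate exporter (-0.84 ± 0.07), and both kept their calls with the hybridization controls.

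Regulators and targets of NRF2 outside the enzyme set were followed in a list of 31, of which 28 were tested. In WT_DES 12 were higher and 4 lower, beside 20.6% and 23.3% of all genes, with a median of 0.18. Nfe2l2, which encodes NRF2, was higher (1.20 ± 0.11, adjusted p = 2.18e-06), and so was Bach1, its competitor at the same elements (1.05 ± 0.13, adjusted p = 3.80e-05). Keap1 had a difference of -0.21 ± 0.06 as deposited, which changed sign to 0.15 with no call after scaling to the hybridization controls. Among targets, Akr1b8, an aldo-keto reductase (1.58 ± 0.14), Slc40a1, the iron exporter ferroportin (1.22 ± 0.10), and Me1, which makes NADPH (0.60 ± 0.19), were higher, as was the NRF2 relative Nfe2l3 (0.45 ± 0.08). In the aERKO comparison 0 of the 28 were called, and 0% of all genes. The interaction was called for 9 higher and 0 lower as deposited, beside 14.1% and 9.16% of all genes. It was called for 7 and 5 with quantile normalization, 7 and 2 with the same median, and 7 and 0 with the hybridization controls.

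Other oxidant defence genes, a list of 24 with 21 tested, were called in both directions. In WT_DES 6 were higher and 8 lower, beside 20.6% and 23.3% of all genes, with a median of -0.01. Cp, ceruloplasmin, a secreted copper ferroxidase, was 2.37 ± 0.12 higher. Pon3, a lactonase that protects lipids (1.16 ± 0.12), Selenop, the plasma selenium carrier (1.02 ± 0.09), and Sesn1, a sestrin (0.60 ± 0.11), were also higher. Nqo2, a relative of Nqo1, was lower as deposited (-0.70 ± 0.11), as was the metal-binding metallothionein Mt1 (-0.68 ± 0.10); both lost their calls with the hybridization controls. Enzymes that produce oxidants, a list of 22 with 18 tested, held 10 higher and 0 lower, with a median of 0.47. The shares of all genes were again 20.6% higher and 23.3% lower. Cybb, the catalytic subunit of the phagocyte NADPH oxidase, was 3.46 ± 0.15 higher. Its partners Cyba (1.66 ± 0.12), Ncf1 (1.70 ± 0.13) and Ncf4 (0.77 ± 0.09) were higher too, as were Nos2, the inducible nitric oxide synthase (1.95 ± 0.13), and Noxo1, an organizer of the oxidase NOX1 (0.77 ± 0.11). With the hybridization controls the 4 lists gave 12 higher and 2 lower, 17 and 0, 10 and 0, and 14 and 0, in the order described. With quantile normalization they gave 8 and 11, 12 and 8, 5 and 10, and 11 and 0, and with the same median 8 and 10, 10 and 5, 5 and 8, and 9 and 0. Nox4, in the last list, entered the test only through the WT_DES arrays.

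**Figure D5:**
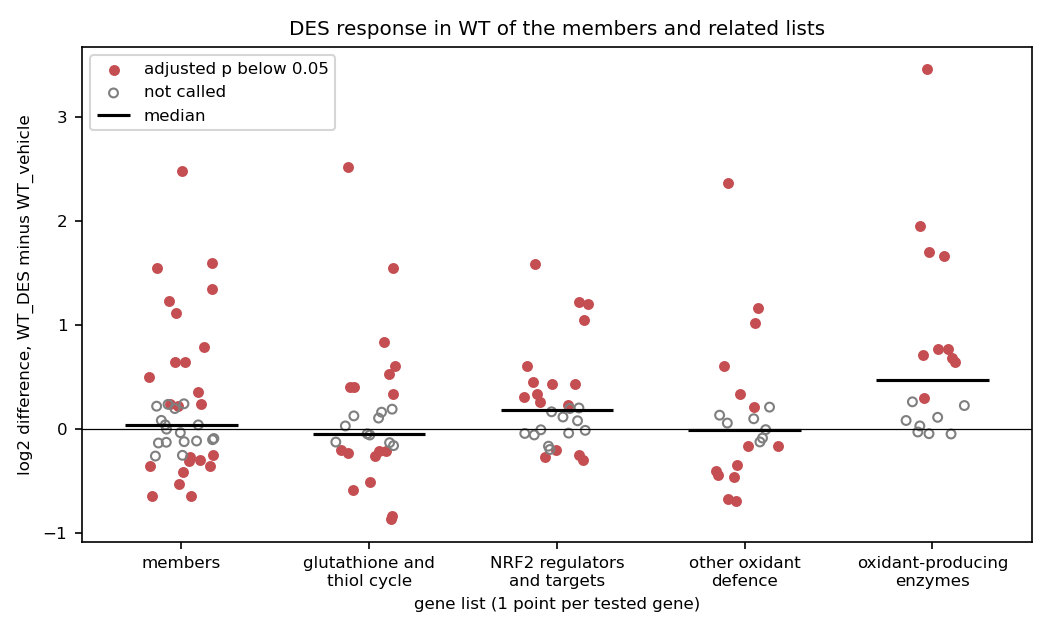
Log2 difference, WT_DES minus WT_vehicle, of each tested gene in the 41 glutathione and antioxidant enzymes and in the 4 related lists, with called genes filled and the list's median as a line. The medians are 0.04, -0.05, 0.18, -0.01 and 0.47 from left to right, and the highest point is Cybb.

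Markers of several cell types moved with these differences, and their part in the result was not tested. Of these markers, Dsg3, Il7r, Jchain, Ms4a1, Ngp, Pparg, Retnlg and S100a8 passed the filter only through the WT_DES arrays. For comparison, 20.6% of all genes were called higher and 23.3% lower in wild type. In WT_DES 13 of 14 macrophage markers were higher and 1 lower (median 2.13), and their mean level was 9.41 to 9.80 in WT_DES against 7.50 to 7.72 in WT_vehicle, 7.49 to 7.54 in aERKO_vehicle and 7.54 to 7.72 in aERKO_DES. Of 10 neutrophil markers 7 were higher, with a mean level of 8.05 to 8.45 in WT_DES and 5.64 to 5.95 over the other 9 arrays. All 8 fibroblast markers tested were higher (median 1.65; mean level 10.30 to 10.81 in WT_DES and 8.54 to 8.90 in WT_vehicle). All 7 basal and squamous epithelial markers tested were higher (median 1.62), as were all 7 B and plasma cell markers tested (1.37), 6 of 7 T cell markers (1.00) and all 7 endothelial markers (0.70). Of 8 smooth muscle markers 7 were lower as deposited (median -0.46), and 0 with the hybridization controls. Of 8 luminal epithelial markers 5 were higher and 2 lower, and of 7 adipocyte markers tested 1 was higher. The mean level of the adipocyte markers was uneven in WT_vehicle, at 7.92, 6.68 and 7.04. It was 7.31 to 7.41 in WT_DES and 6.34 to 6.64 over the aERKO arrays. In aERKO_DES 5 of the 7 were lower than in WT_DES, beside 24.6% of all genes.

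Secretory genes of the labelled tissue were bright on every array: the mean level of 10 seminal vesicle secretion genes was 13.36 to 13.67 in WT_DES and 13.75 to 13.82 in WT_vehicle. As deposited, 6 of the 10 were called lower in wild type and 0 higher (median -0.25), beside 23.3% and 20.6% of all genes. The count lower was 9 with quantile normalization and 1 with the hybridization controls. Markers of epididymis and liver, tissues in which several of the enzymes are abundant, had mean levels of 5.43 to 5.86 over the 12 arrays, below every array median. The 4 that could be tested were Lcn8, Defb15, Apoa1 and Lcn5. The first 3 exceeded the array median on every array, and Lcn5 on the 3 WT_DES arrays and 8 of the other 9. By limma 0 of the 4 were called in wild type as deposited, and 2 were lower with the same median.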

How the data were processed

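For each probe set the authors deposited a log2 value from RMA, run in Affymetrix Expression Console according to the submitters' processing notes. Its version and the genome build were not given in the sources used here. Per the labels' protocols, 300 ng of Trizol-extracted RNA were amplified and labelled with biotin. RMA makes the arrays' distributions alike, though the medians of the deposited values still differed. A broad change can therefore push other genes the other way. Of 72688 probe sets, 186 were controls, 30604 had 1 gene symbol, 2146 several and 39938 none; 1121 symbols were updated through the RefSeq gene table. A gene with several probe sets (430 genes, 0 of those described) was represented by the brightest. A gene was tested if at least 3 of its 12 values exceeded the median of all probe sets on their array (20103; 9959 removed). limma 3.58.1 in R 4.3.3 fitted 1 mean per group to all 12 arrays (8 residual and 4.33 prior degrees of freedom), with two-sided tests, Benjamini-Hochberg adjustment over all genes tested and a threshold of 0.05. SEs and 95% intervals are limma's, whereas SDs describe the 3 arrays in a group. The number of arrays limits the precision. The fit was tested on simulated data.

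Values on every array are given for genes with a called difference of at least 2-fold or a called difference between genotypes; a few others were chosen after their values were seen. The genes, the pathway and marker lists, the tests and the alternatives were chosen with earlier results of these data known. Of each pathway list, up to 6 genes with the largest called differences in wild type are named, with Keap1 in addition. Alternatives were no filter or a stricter one, the mean of a gene's probe sets, robust moderation with a trend, a fit to only the groups compared, quantile normalization, scaling to the same median or to the hybridization controls, the replicate number as a block, and each array left out.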

Additional observations from a re-analysis of the deposited data

Results flagged for a closer look

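Differences between the DES responses of the 2 genotypes, tested by the interaction term in limma, drew attention to 15 genes. The response in wild type minus that in aERKO was 2.49 for Gsto1, 1.56 for Hmox1, 1.51 for Gsta4, 1.37 for Gpx3, 1.23 for Gsr, 1.22 for Mgst1, 0.81 for Txnrd1, 0.74 for Prdx4, 0.64 for Gpx2, 0.54 for Gpx1, 0.40 for Gsta3, 0.31 for Sod2 and 0.31 for Prdx2. It was -0.49 for Gstz1 and -0.23 for Txnrd2. Among all genes 23.3% were called in this test.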

How the results depend on the processing

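Of 211 counts and medians recomputed under an alternative, 191, all of them counts, were unchanged or within 1.5 times. They include the counts of the aERKO response and of the genotypes given vehicle, 0 as deposited, where an unchanged 0 says little about stability. The count of genes called lower in the interaction, 2 as deposited, was 0 with no filter, 7 with quantile normalization, 5 with the same median and 0 with the hybridization controls. With the hybridization controls 0 genes were called lower in wild type and 1 higher in aERKO_DES than in WT_DES. The median of the 41 genes in wild type was -0.0671 with quantile normalization, -0.0325 with the same median and 0.40 with the hybridization controls, and it was -0.0261 without WT_vehicle 1 and -0.0119 without WT_DES 2. In the hybridization setting the called wild-type differences that changed sign were Gclc 0.0012, Gstk1 0.0014, Gstm4 0.0874, Gstm6 0.0538, Prdx3 0.0486 and Txnrd2 0.11, and that of Txnrd2 between aERKO_DES and WT_DES was -0.0212. Leaving out each array gave 12 to 15 genes higher and 6 to 12 lower in wild type, 10 to 14 and 0 to 3 in the interaction, 7 to 13 and 15 to 17 between the genotypes after DES, and 0 in the other comparisons. Samples with the same replicate number deviated together in some pairs and not in others. Their correlations ran from -0.36 to 0.52 (median 0.07), and those of pairs with different numbers from -0.57 to 0.58 (median -0.02). Of the 18 same-number pairs 6 exceeded 0.1, and 4 of 12 arrays deviated most like their own number. With the replicate number as a block, 17 genes were higher and 11 lower in wild type, and 14 and 2 in the interaction. Over all genes the block gave 4502 higher and 5486 lower in wild type, against 4151 and 4677 without it. In the interaction it gave 3285 and 2704, against 2837 and 1841. Array signal over background limits what can be said of the 4 untested genes.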
